A study of Equus caballus with 9 samples.

Results

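Gene expression of horse bone marrow-derived mesenchymal stromal cells (MSC) taken towards adipocytes (ADM) was compared with that of the undifferentiated cells. The comparison rests on 6 of the series' 9 RNA-seq libraries, the 3 titled as ADM and the 3 titled as MSC. They were chosen by title, and the 3 libraries of cells taken towards chondrocytes (CDM) were left out of the fit. Both groups came from bone marrow of Equus caballus. The MSC libraries are the untreated control, and the ADM libraries come from cells that had passed an adipogenic procedure whose agents and duration the sources used here do not give. They give no breed, age or number of animals either, nor say whether the replicates are separate cultures. The p-values therefore measure only the spread from library to library, which may be technical.

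Mesenchymal stromal cells are fibroblast-like cells that grow on plastic and can form fat, cartilage and bone. Adipogenesis is driven by the transcription factors C/EBP and PPAR-gamma, which switch on the genes for fatty acid uptake, triglyceride synthesis, the coat of lipid droplets and secreted hormones such as adiponectin. Cultures usually respond unevenly, so that a library from a treated dish is a mixture of cells that hold lipid and cells that do not. In bulk RNA, fewer cells of a type and less RNA per cell cannot be told apart.

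The counts are listed by gene ID without symbols, and 0 of 30371 IDs matched the gene table used here. The adipocyte, stromal and other cell type markers were therefore not checked, and the label of the ADM cells is the submitters'. Genes are described by ID, level and change. Gene counts per library were 26581345 to 37609071 in MSC and 27625854 to 39331930 in ADM. Of the 30371 IDs, 13256 passed a filter on low counts and were tested. Levels are in CPM, which relates a gene's reads to the total of its library, after TMM scaling for differences in composition between libraries.

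The ADM libraries were close to one another and the MSC libraries were not. Across the tested genes, log2 CPM values correlated at 0.970 to 0.973 between ADM libraries and at 0.855 to 0.924 between MSC libraries (Pearson, across genes, which are not independent replicates). Correlations between an ADM and an MSC library were 0.865 to 0.898. MSC replicate 3 correlated at 0.882, 0.885 and 0.874 with the ADM libraries, and at 0.855 and 0.876 with MSC replicates 1 and 2. Its highest correlation was with an ADM library, while MSC replicates 1 and 2 were closest to each other (0.924). In the first principal component of the 500 most variable genes, all 3 ADM libraries lay on one side and all 3 MSC libraries on the other. The second component, with 34.9% of the variance, set MSC replicate 3 apart from MSC replicates 1 and 2, with the ADM libraries between them.

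**Figure D1:**
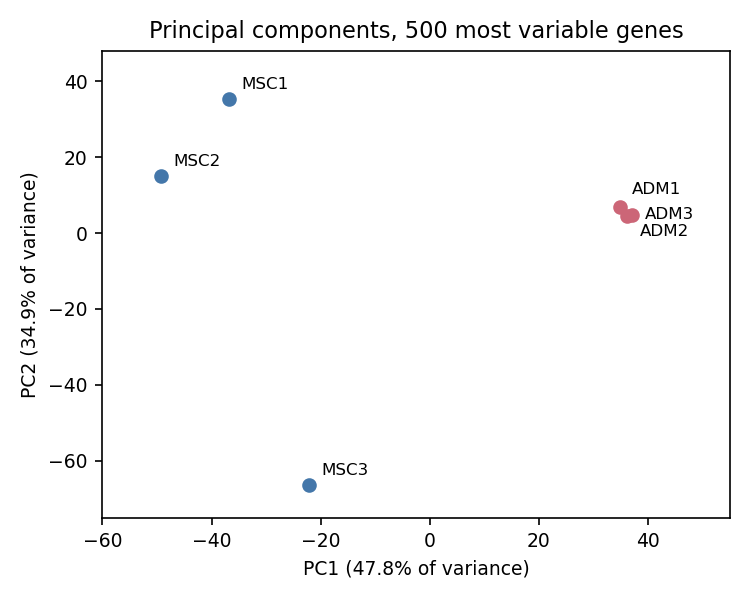
First and second principal component (PC1, PC2; share of variance on each axis) of log2 CPM of the 500 most variable genes in the 3 MSC (blue) and 3 ADM (red) libraries, 1 point per library. The ADM points lie together at 34.8 to 37.2 on PC1, and MSC replicate 3 lies at -66.3 on PC2 against 35.4 and 15.1 for MSC replicates 1 and 2.

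The spread between replicates was larger in MSC for most genes. The biological coefficient of variation, edgeR's estimate of the relative spread between libraries beyond counting noise, was 0.260 among the ADM libraries and 0.575 among the MSC libraries. It was 0.446 for MSC replicates 1 and 2 alone. The standard deviation of log2 CPM was larger in MSC than in ADM for 10209 of 13256 genes (77.0%), with medians of 0.462 and 0.254. MSC replicate 3 was the highest or the lowest of the 6 libraries for 6157 genes, MSC replicate 2 for 5804 and MSC replicate 1 for 4574, against 2839 to 4261 for the ADM libraries. For 764 genes every ADM library lay below MSC replicate 3 and above both other MSC libraries, and for 540 genes the order was the opposite. Both orders together made up 9.84% of the genes tested. With MSC replicate 1 in that place they held 413 and 378 genes (5.97%), and with MSC replicate 2 they held 216 and 195 (3.10%).

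The genes that took the most reads showed this spread. ENSECAG00000013693 had the highest mean CPM in both groups, not corrected for length, and was chosen after its values were seen. It stood at 8887, 6795 and 129451 CPM in MSC replicates 1, 2 and 3 and at 51371, 58406 and 32114 CPM in the ADM replicates. All 3 ADM values lay inside the MSC range, because MSC replicate 3 was far above its group and the other MSC libraries far below ADM. Its log2 fold change was -0.03 (SE 1.15, edgeR adjusted p = 0.991). Among the 20 genes with the highest mean CPM, MSC replicate 3 was the highest or the lowest library in 15. That is 75%, against 46.4% of all genes tested. Of the 20, 9 did not overlap between the groups (45%, against 28.7% of all genes). In edgeR 0 of the 20 passed between ADM and MSC (smallest adjusted p = 0.0601), where 1.38% of all genes did. An unadjusted p under 0.05 was found for 4, near the share of 21.0% over all genes. DESeq2 called 3 and voom 1, against 10.2% and 1.65% of all genes. One of the 20 genes was ENSECAG00000027689, also chosen after its values were seen. It stood at 28679, 13128 and 23229 CPM in MSC and at 7401, 9396 and 11226 CPM in ADM. Every ADM library was lower, but the change did not pass (log2 fold change -1.21, SE 0.47, edgeR adjusted p = 0.210).

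Between ADM and MSC, 102 genes rose and 81 fell at an adjusted p under 0.05 in edgeR's quasi-likelihood test of the 6 libraries. These are 0.769% and 0.611% of the 13256 genes tested, or 1.38% together. At an unadjusted p under 0.05 the same test gave 1204 higher and 1578 lower genes, 21.0% of all tested. The changes that passed were large, and with 3 libraries per group the threshold itself favours large changes. The smallest was 1.13 on the log2 scale among the genes that rose, whose median was 2.96, and the median size of the change among the genes that fell was 2.77. Of the genes that rose, 74 changed more than 4-fold and 25 more than 16-fold, and of those that fell, 59 and 20. The median absolute log2 change over all genes tested was 0.41. Each direction held 1 gene with a count of 0 in every library of the lower group, and the medians were the same with such genes set to the bound of 3 counts over that group.

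Genes at all levels passed. Of the genes that rose, 29 had a mean under 1 CPM in MSC, and 25 reached a mean of at least 100 CPM in ADM. Of the genes that fell, 26 had a mean under 1 CPM in ADM, and 18 had been at 100 CPM or more in MSC. By mean level over both groups, 0.451% of the genes under 1 CPM passed, 1.47% of those at 1 to 10 CPM, 1.40% of those at 10 to 100 CPM and 1.75% of those at 100 CPM and over. The 183 genes together held a small part of the gene counts, which are not corrected for gene length. Those that rose took 0.425%, 0.406% and 0.288% of gene counts in MSC replicates 1, 2 and 3 and 1.40%, 1.33% and 1.49% in the ADM replicates. Those that fell took 0.670%, 0.800% and 0.577% in MSC and 0.107%, 0.104% and 0.109% in ADM. These shares describe genes selected in the same libraries for a difference that is large against the spread within groups. That selection also favours shares that are alike within a group, so the near-equal ADM sums are no separate evidence of evenness.

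**Figure D2:**
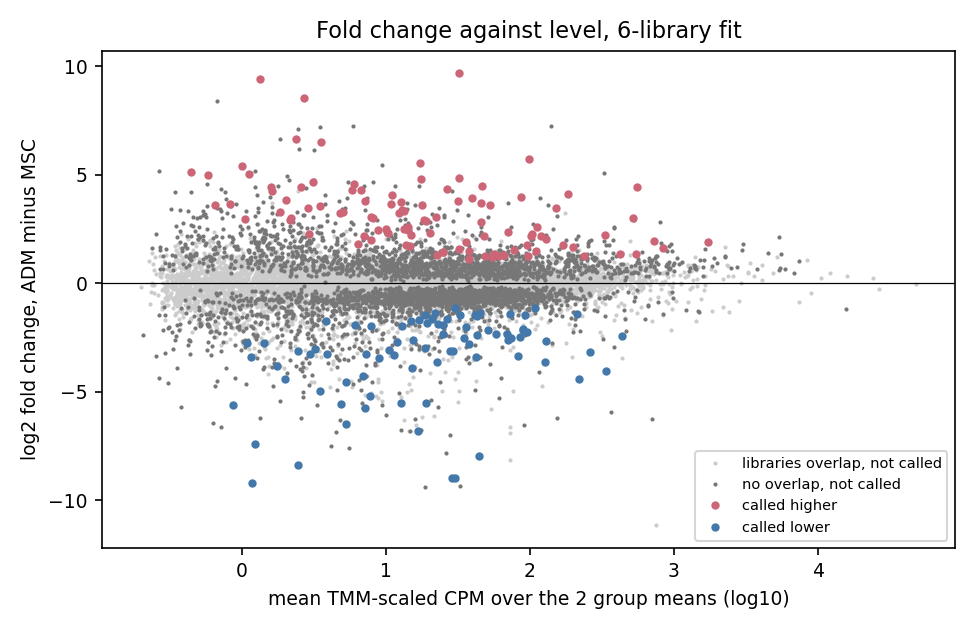
Log2 fold change of ADM minus MSC (vertical axis) against the mean TMM-scaled CPM (horizontal axis, log10) for the 13256 genes tested, with the 102 called higher in red, the 81 called lower in blue, other genes without overlap in dark grey and overlapping genes in light grey. Called genes lie at all levels, and many genes with changes as large did not pass.

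Many genes with large changes did not pass. Among 812 genes with a fitted change of more than 4-fold, 679 were not called, and in 228 of these the ADM and MSC libraries overlapped. Separation without a model of the spread was far more common. In 1775 genes every ADM library lay above every MSC library (13.4%), and in 2030 every ADM library lay below (15.3%), 28.7% of the genes tested. If all orders of the 6 libraries were equally likely, a gene would lack overlap with a probability of 0.1. Genes are not independent, so that value is a reference and not a test. All 183 called genes were among these 3805, whose median absolute log2 change was 0.86. The share without overlap was 22.6% under 1 CPM, 27.7% at 1 to 10 CPM, 29.5% at 10 to 100 CPM and 31.8% at 100 CPM and over. The smaller spread within ADM goes with this share and its part in it was not tested. Without MSC replicate 1 the counts were 2724 higher and 3063 lower, without MSC replicate 2 they were 2359 and 2582, and without MSC replicate 3 they were 3188 and 3467. Fewer libraries have to be separated in these counts, which raises them by itself.

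A small set of genes was close to off in one group and on in the other. In 7 genes (0.0528% of those tested) every ADM library had at least 5 CPM and every MSC library under 1 CPM, and 6 of these passed the test. In 9 genes (0.0679%) every MSC library had at least 5 CPM and every ADM library under 1 CPM, and 8 passed. Over all genes tested 1.38% passed, but these genes were picked for a wide gap between the same libraries, which favours passing. Genes to be named had to pass the test, reach a mean of 5 CPM or more in one group and not overlap between the groups, and were then ranked by fold change. This held for 85 genes that rose and 71 that fell, of which the 2 at the top of each direction are described here. In each direction 1 called gene under that level, with a count of 0 in every library of the lower group, had a fitted change that would have placed it among them. Of these 4, all but ENSECAG00000036646 belong to the sets just described.

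ENSECAG00000006482 had the largest rise among the genes called. It stood at 0.0980, 0.0605 and 0.0651 CPM in MSC replicates 1, 2 and 3, from 3, 2 and 2 reads, and at 12.5, 64.8 and 114.4 CPM in the ADM replicates. It was near 0 in all MSC libraries and present in all ADM libraries, with an uneven level among them. The pooled ADM level was 801 times the pooled MSC level, with a 95% exact interval of 388 to 1992 that covers counting error only. The log2 fold change was 9.67 (SE 1.06, edgeR adjusted p = 0.0184). The adjusted p was 0.0722 without MSC replicate 2, 0.0952 without ADM replicate 2, 0.105 without ADM replicate 3 and 0.291 in voom with group weights.

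ENSECAG00000036646 had the next largest rise among called genes whose mean reached 5 CPM in ADM. It had 0, 1 and 0 reads in the MSC replicates and 203, 148 and 167 reads in the ADM replicates, or 5.57, 4.71 and 5.99 CPM. This gene was on at an even level in the ADM libraries and near 0 in MSC. With 1 MSC read in all, the ratio of pooled levels was 511 with a counting interval of 91.3 to 20212. The log2 fold change was 8.55 (SE 0.75, edgeR adjusted p = 0.0111), and the adjusted p was 0.0854, 0.0952 and 0.113 without ADM replicates 1, 2 and 3.

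ENSECAG00000024358 had the largest fall among called genes whose mean reached 5 CPM in MSC. It stood at 35.4, 52.1 and 84.4 CPM in the MSC replicates and at 0.0275, 0.0636 and 0.251 CPM in the ADM replicates, from 1, 2 and 7 reads. All MSC libraries expressed it and all ADM libraries had nearly lost it. The pooled MSC level was 548 times the pooled ADM level (counting interval 298 to 1143). The log2 fold change was -9.01 (SE 0.76, edgeR adjusted p = 0.0111), and the adjusted p was 0.0565, 0.0952 and 0.0506 without ADM replicates 1, 2 and 3.

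ENSECAG00000019665 fell by nearly as much and was even within MSC. It stood at 52.5, 60.4 and 68.8 CPM in the MSC replicates and at 0.0549, 0.255 and 0.0359 CPM in the ADM replicates, from 2, 8 and 1 reads. The pooled MSC level was 527 times the pooled ADM level (counting interval 295 to 1057). The log2 fold change was -8.99 (SE 0.63, edgeR adjusted p = 0.00610), and the adjusted p was 0.0548 without ADM replicate 1 and 0.0678 without ADM replicate 3.

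**Figure D3:**
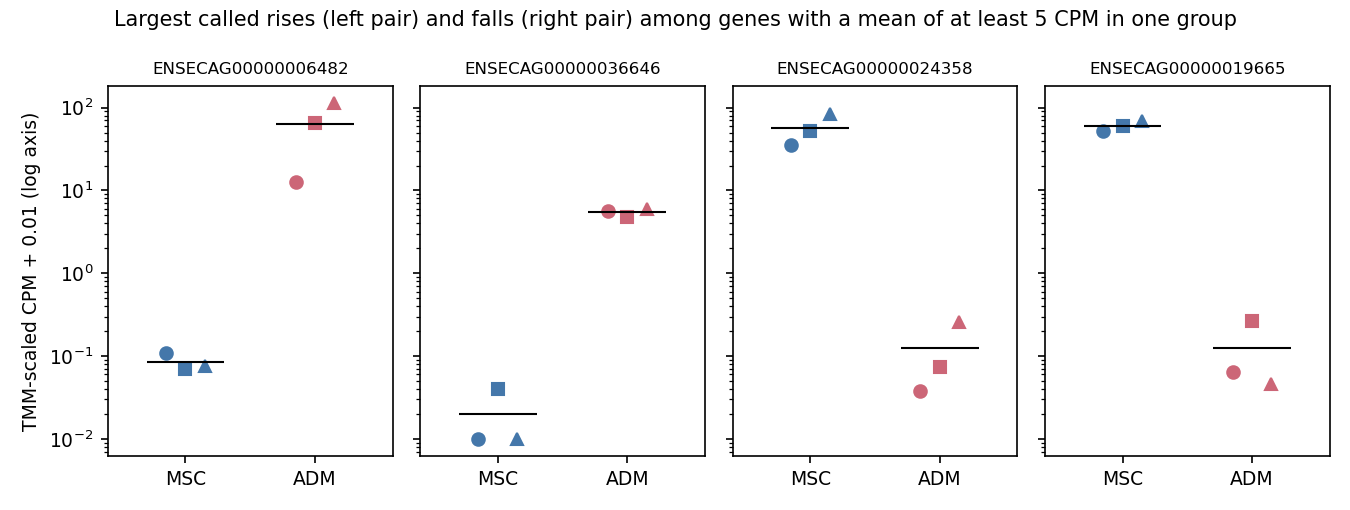
TMM-scaled CPM (log axis, after adding 0.01 so that 0 can be drawn) of the 2 genes with the largest called rise and the 2 with the largest called fall, among genes whose mean reached 5 CPM in one group, in the MSC (blue) and ADM (red) libraries. Circles, squares and triangles are replicates 1, 2 and 3, and lines are group means. The groups do not overlap in any of the 4 genes, and ENSECAG00000006482 ranges from 12.5 to 114.4 CPM within ADM.

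How many genes passed depended on which libraries were in the fit. Without MSC replicate 3, 881 genes rose and 804 fell (12.3% of 13648 tested), and all 183 genes of the 6-library fit were among these 1685. Without MSC replicate 2 the counts were 18 and 20 (0.28%). Without ADM replicate 1 they were 5 and 1 (0.0439%), without ADM replicate 2 they were 3 and 2 (0.0365%), and without ADM replicate 3 they were 3 and 0 (0.0215%). Without MSC replicate 1 they were 129 and 106 (1.73%), which included 125 of the 183. For the fit without ADM replicate 3, where edgeR called 0 genes lower, 1757 genes had an unadjusted p under 0.05. In each of these 6 fits all 183 genes had an unadjusted p under 0.05, in the direction that their lack of overlap fixes. The 183 were selected in a fit that shares all remaining libraries. A low unadjusted p is therefore favoured in advance and is no separate evidence. The common biological coefficient of variation was 0.344 without MSC replicate 3, 0.449 with all 6 libraries and 0.512 to 0.518 without 1 ADM library.

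**Figure D4:**
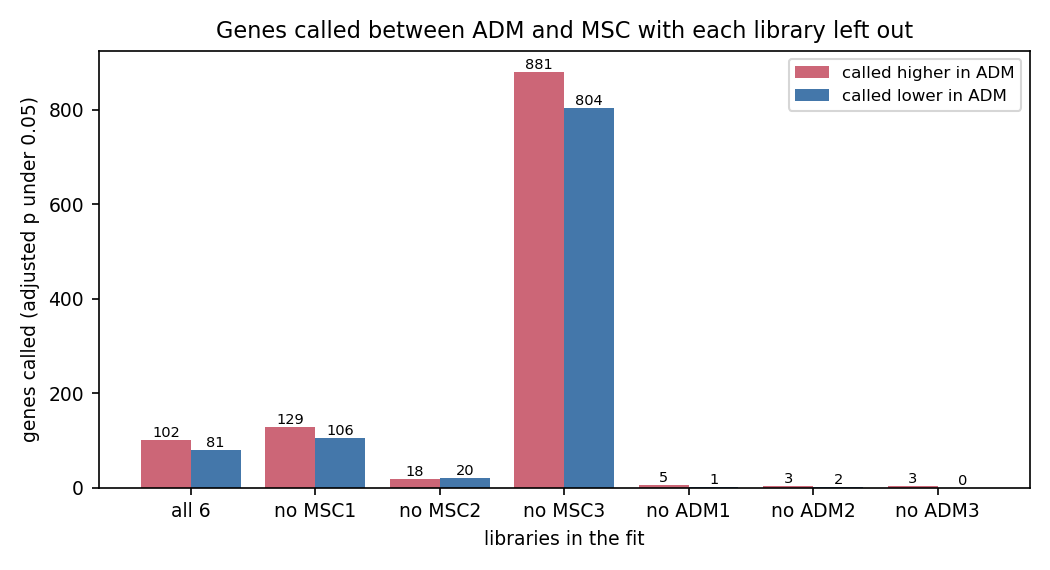
Number of genes called higher (red) and lower (blue) in ADM (vertical axis, edgeR adjusted p under 0.05) with all 6 libraries and with each library left out (horizontal axis). The counts rise from 102 and 81 to 881 and 804 without MSC replicate 3 and fall to at most 5 and 2 without any 1 ADM library.

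A library that was left out can be read against the genes called without it. For the 1685 genes called without MSC replicate 3, that library lay on the MSC side of every ADM library in 1068 (63.4%), within the ADM range in 291 and beyond the ADM libraries on the opposite side in 326 (19.3%). Over all 13648 genes in that fit, taken in their fitted direction, the shares on the MSC side and on the opposite side were 48.8% and 25.7%. For the 235 genes called without MSC replicate 1, that library lay on the MSC side in 211 (89.8%) and on the opposite side in 12, where all genes gave 52.6% on the MSC side. For the 38 genes called without MSC replicate 2, it lay on the MSC side in 38 (all genes 57.7%). The ADM libraries in these readings are those used in the fits. The shares over all genes include many small changes and are not matched to the called genes in size of change. The genes called without MSC replicate 3 thus held 617 genes in which MSC replicate 3 did not lie with its group.

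The number also depended on the test. On the same 6 libraries and genes, DESeq2 called 681 genes higher and 665 lower (10.2% of 13256), which included all 183 of edgeR's calls. Voom with a weight for each group's spread called 106 and 113 (1.65%), which shared 147 genes with edgeR in the same direction, 80.3% of edgeR's list and 67.1% of voom's. With the CDM libraries added to the fit, 2 genes passed as higher and 2 as lower (0.0295% of 13571 tested), and all 4 were among the 183. None of these 4 was a gene named above: there the edgeR adjusted p was 0.0552 for ENSECAG00000006482 and ENSECAG00000036646, 0.111 for ENSECAG00000024358 and 0.0637 for ENSECAG00000019665. The CDM libraries share the estimate of spread in that fit, whose common biological coefficient of variation was 0.573.

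The CDM libraries, which entered neither the fit nor the choice of genes, give the level of the called genes in cells of another lineage. Levels here were scaled over all 9 libraries. CDM replicate 2 stood apart: its 10 most abundant genes took 56.2% of its gene counts, 36.4% of its counted reads were assigned to no gene, and its TMM factor was 0.525. The 102 genes that rose had median levels of 3.57, 2.69 and 3.85 CPM in MSC replicates 1, 2 and 3, 29.2, 27.3 and 27.0 CPM in ADM and 6.30, 4.86 and 6.40 CPM in CDM. The 81 genes that fell had medians of 28.0, 30.4 and 34.2 CPM in MSC, 6.26, 5.004 and 5.63 CPM in ADM and 14.1, 24.0 and 16.5 CPM in CDM. Shares of gene counts, which the abundant genes dominate, gave another picture for the genes that rose. They took 1.23%, 0.111% and 0.940% in CDM replicates 1, 2 and 3, against 1.33% to 1.49% in ADM and 0.288% to 0.425% in MSC. The genes that fell took 0.275%, 0.496% and 0.340% in CDM. The median over genes of the CDM mean was 7.18 CPM for the genes that rose and 20.7 CPM for those that fell, and 7.33 and 17.8 CPM without CDM replicate 2. Over all genes tested in the 6 libraries, the medians were 13.9 to 15.9 CPM in the 9 libraries. Both comparisons with MSC share the MSC libraries, so no overlap between them is given.

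**Figure D5:**
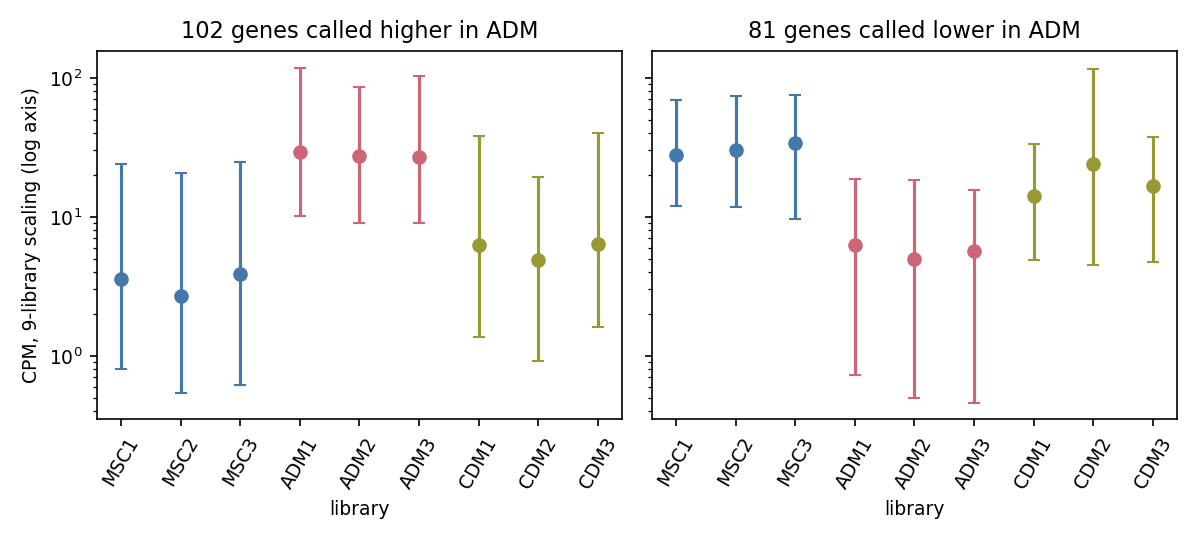
Median (point) and quartiles (bars) of CPM scaled over 9 libraries (vertical log axis) of the 102 genes called higher (left) and the 81 called lower (right), in each library (horizontal axis, MSC blue, ADM red, CDM olive). The quartiles span the genes, not replicates, and the CDM medians are 4.86 to 6.40 CPM on the left and 14.1 to 24.0 CPM on the right.

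The 4 named genes did not share 1 pattern in CDM. ENSECAG00000006482 was at 0.450, 0 and 1.20 CPM in CDM replicates 1, 2 and 3, from 13, 0 and 38 reads, against 11.5, 59.6 and 105.0 CPM in ADM on the same scaling. ENSECAG00000036646 had 2, 0 and 7 reads in CDM. Both were low in all CDM libraries and below every ADM library. In CDM replicates 1 and 3 both stood above every MSC library, whose highest values were 0.0867 and 0.0265 CPM. ENSECAG00000036646 was at 0.0693 and 0.222 CPM there, from few reads. ENSECAG00000024358, nearly lost in ADM, was at 33.4, 290.5 and 1.61 CPM in CDM, against an MSC range of 31.3 to 74.9 CPM. The value above that range is that of CDM replicate 2, which was 152.4 CPM by library total, and the value below it is that of CDM replicate 3. ENSECAG00000019665 was at 14.1, 3.20 and 0.443 CPM in CDM, below the MSC range of 46.4 to 61.0 CPM in every library and above every ADM library.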

How the data were processed

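Polyadenylated RNA was sequenced. The authors deposited 1 table of unnormalized read counts by gene ID for each library. Build equCab3 and the tools STAR 2.7.5c, FastQC 0.11.9, DESeq2 3.16 and HTSeq 1.99.2 are listed per the submitters' processing notes. No source used here gives the annotation release or strand setting, so overlapping, antisense or near-identical genes may share or lose reads. The 5 HTSeq summary lines (24.4% to 28.8% of counted reads) were left out. Groups came from the titles.

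Genes were filtered by filterByExpr, scaled by TMM and tested in R 4.3.3 with edgeR 4.0.16 (glmQLFTest, 2-sided, group term only, 4 residual degrees of freedom, Benjamini-Hochberg over 13256 genes, threshold 0.05). SEs came from the change and its F statistic. Correlations used log2 CPM with a prior count of 2. An exact test of 1 value for 3 libraries against 3 cannot go below 0.1. The procedure was also run on simulated counts drawn independently for each gene and library. A library that departs from its group in many genes together was not simulated, and no conclusion is drawn from that run. Alternatives used DESeq2 1.42.0, limma 3.58.1, other scalings and filters, and fits without each library. At these depths 3 counts are 0.0763 to 0.113 CPM of the library total.

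The comparison, rule for named genes and 32 gene lists were chosen with earlier results of these data known. The lists and the rule's parts on symbols and abundant genes were not applied, because no ID had a symbol. Under the rule at most 2 IDs that rose and 2 that fell are printed. The abundant ENSECAG00000013693 and ENSECAG00000027689 were chosen outside the rule, after their values were seen. Replicate pairs within a group differed beyond sampling noise (chi-square per degree of freedom at least 69.2).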

Additional observations from a re-analysis of the deposited data

How the results depend on the processing

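Against 102 genes higher and 81 lower, DESeq2 gave 681 and 665, a filter of at least 10 counts in every library of 1 group 161 and 130, and the fit of all 9 libraries 2 and 2; the cause was not tested. Leaving out 1 library gave 3 to 881 higher and 0 to 804 lower. Genes without overlap then numbered 2100 to 3188 higher and 2357 to 3467 lower, against 1775 and 2030. In each of these fits fewer libraries have to be separated, and the number also differed with the library left out. It was highest in both directions without MSC replicate 3. The replicate numbers are not said to pair the libraries, so they are not treated as pairs. Correlations of the deviations of same-numbered libraries were -0.14, -0.22 and -0.10. With 3 libraries per group these values cannot exclude pairing. With the replicate number as a block, edgeR called 0 genes higher and 0 lower, with 1854 at an unadjusted p under 0.05. RLE factors, library totals, a filter of 1 count and voom gave counts within 1.5 times of the main ones. Library totals moved the median log2 change of all genes by -0.17. The 4 named genes kept their direction in all 14 alternatives and passed in 8, 9, 9 and 10 of them. Their adjusted p was 0.0552 to 0.111 in the 9-library fit and 0.0672 to 0.0823 with the replicate block, where none passed. Median levels in CDM, 7.18 CPM for genes that rose and 20.7 CPM for genes that fell, moved by less than the spread between CDM libraries.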
